A study of Mus musculus with 4 samples.

Results

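The genes described here are the molecular chaperones and heat shock proteins of the mouse, taken as every gene whose symbol begins with Hspa, Hspb, Hspd, Hspe, Hsph, Hsp9 or Dnaj, with Hspg2 and Hspbp1 left out, and that had at least 50 UMIs (unique molecular identifiers, the counted mRNA molecules) over the first lanes of both pools. Of 32286 features listed, 74 symbols matched and 59 reached the minimum. They were sorted by role into 9 cytosolic inducible, 20 cytosolic constitutive, 14 endoplasmic reticulum (ER), 9 mitochondrial and 7 tissue-restricted or divergent members. Just inside the minimum was Hspa12b with 55 UMIs, and just outside were Hspb6 with 43 and Dnajb3 with 36. The small heat shock gene Hspb8, with 11 UMIs, was left out the same way.

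The cells came from mice on the C57BL/6J strain that carry Tnfsf11tTA/+, LC1 and Rosa26LSL-tdTomato, so that cells in which the locus of Tnfsf11 (the gene of the osteoclast cytokine RANKL) was active while the system was on, and their progeny, are marked with tdTomato. Doxycycline from E0 to birth kept the marking off before birth, in both groups. The control group was 1 pool of 4 mice and the immobilized group 1 pool of 6 mice after 2 weeks of hindlimb immobilization that began at 8 weeks of age, a model of bone loss from disuse, and all mice were 10 weeks old at collection. Live tdTomato+ cells negative for CD45.2 and Ter119 were sorted from flushed and enzyme-digested femurs and tibias and profiled with droplet-based sequencing of the 3′ ends of mRNAs. Since each group is 1 pool, no test across animals was possible, no p-value is given, and the intervals reflect counting error alone; variation among cells and mice is not in them.

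Chaperones bind proteins that are unfolded or newly made and keep them from aggregating. HSP70 proteins (Hspa genes) do this in an ATP-driven cycle that the J-domain proteins (Dnaj genes) start and nucleotide exchange factors complete, HSP90 proteins finish the folding of signalling clients, and small heat shock proteins (Hspb genes) hold unfolded proteins without ATP. Cells keep separate sets in the cytosol, the ER and mitochondria, which respond to different alarms: heat shock factor HSF1 raises the inducible cytosolic set through heat shock elements, and the unfolded protein response raises the ER set, on which osteoblasts rely to secrete collagen.

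The promoters of the members were searched for the elements of both responses, and the windows below show elements found in members described in the results. In the 250 bases before the start of transcription (RefSeq, GRCm38.p6), the heat shock element was searched as 2 units, GAANNTTC or TTCNNGAA, each of which reads the same on both strands, and as 3 alternating units in a row, which contain both 2-unit forms. Promoter sequences were matched for 46 of the 59 members; Hsp90aa1, Hsp90ab1, Hspa8 and Hspa9 are among those without a match, so the counts below leave them out. A 2-unit element was present in 7 of the 8 matched inducible members (Hspa1a, Hspa1b, Hspb1, Hsph1, Dnaja1, Dnaja4 and Dnajb4), in 2 of 15 constitutive, 1 of 12 ER and 2 of 6 mitochondrial members, beside 14.5% of 27025 genes. The 3-unit form, in 0.514% of genes, was found in Hspd1, Hspe1 and Dnajb6 and in none of the 8 inducible members. The ER stress element, searched on both strands as CCAAT and CCACG with 9 bases between them, overlaps the CCAAT box (37.5% of genes) and was in 0.13% of genes and in 3 members, the ER chaperones Hspa5, Hsp90b1 and Dnajc3. A match of letters is a description and does not show that a factor binds there.

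The windows follow 5′ to 3′ on the strand of the gene, with the matched elements in capitals. Hspa1a and Hspa1b, neighbours on chromosome 17, have the same window, and their upstream sequences were identical at 247 of 250 bases (98.8%). Hsp90b1 has the ER stress element at 2 places, in opposite directions. Hspd1 and Hspe1 start on opposite strands and share 1 site, which is therefore shown for Hspd1 only.
Hspa1a, chr17:34972233-34972280, minus strand: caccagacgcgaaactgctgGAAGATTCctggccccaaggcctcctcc
Hspb1, chr5:135887792-135887839, plus strand: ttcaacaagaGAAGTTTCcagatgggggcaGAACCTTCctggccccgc
Hsph1, chr5:149636352-149636379, minus strand: ggtagaatctTTCTCGAAggctcgagaa
Dnaja1, chr4:40722334-40722361, plus strand: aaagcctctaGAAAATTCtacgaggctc
Hspd1, chr1:55088054-55088081, minus strand: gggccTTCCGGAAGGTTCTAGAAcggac
Hspa5, chr2:34772020-34772048, plus strand: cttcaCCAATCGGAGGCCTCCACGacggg
Dnajc3, chr14:118937822-118937850, plus strand: cacaaCCAATCAGCGCCAACCACGacccg
Hsp90b1, chr10:86705633-86705661, minus strand: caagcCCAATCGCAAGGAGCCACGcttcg
Hsp90b1, nearer the start, chr10:86705528-86705556, minus strand: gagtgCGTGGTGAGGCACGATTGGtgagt

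After filtering, 1411 control and 1394 immobilized cells remained, with medians of 5576.5 and 5706.5 UMIs per cell. The lanes of a pool held 9960011 to 10860328 UMIs and nearly the same barcodes (1617 of 1620 control and 1747 of 1751 immobilized barcodes of the first lane were shared), so they were counted as 1 sample and averaged, and UMI numbers can end in 0.5. The pools had 3 barcodes in common. With 146 control and 300 immobilized barcodes left out for their mitochondrial share, the median share in kept cells was 3.36% and 4.398%. Cells were clustered without the chaperone genes among the genes that set the clusters, and clusters with the same name from marker genes were joined into classes. Of these, 3 classes had at least 50 cells in each pool and were compared: Lepr+ CAR stromal-like cells, the Cxcl12-rich reticular cells of the marrow (532 control and 317 immobilized), osteo-primed stromal-like cells (195 and 338) and osteoblast-like cells (483 and 489). Despite the sort against CD45.2 and Ter119, granulocyte-like cells (41 and 51), erythroid-like cells (11 and 44) and B lineage-like cells (17 and 15) were present, and they are used below only to describe levels.

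The cytosolic inducible members stood lower in the immobilized pool than in the control pool in each of the 3 compared classes. Levels are CPM, UMIs of a gene per 1000000 UMIs of the class, and were not divided by transcript length, so they compare pools and classes but not genes. A gene counts as measured in a class if either pool had 50 or more of its UMIs there, averaged over lanes. The median log2 ratio, immobilized over control, was -0.61 over 5 measured inducible members in Lepr+ CAR stromal-like cells, -0.74 over 7 in osteo-primed cells and -1.07 over 8 in osteoblast-like cells, while the medians of all measured genes were 0.002, 0.05 and 0.20. Because the last value shows that osteoblast-like ratios by total counts are shifted as a whole (by 0.22 with median-ratio scaling), log2 ratios in that class are given relative to the shift from here on, and on that scale the inducible median was -1.29 and the median of all genes -0.01.

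The inducible HSP70 genes Hspa1a (ENSMUSG00000091971, chromosome 17, 34969190 to 34972156) and Hspa1b (ENSMUSG00000090877, chromosome 17, 34956436 to 34959238) showed the widest gaps among measured members in osteo-primed and osteoblast-like cells. In osteoblast-like cells Hspa1a stood at 190.2 CPM (95% interval 178.5 to 202.3) in the control and 32.0 CPM (26.8 to 38.0) in the immobilized pool, a log2 ratio of -2.78 (-3.06 to -2.52). In osteo-primed cells it stood at 75.2 CPM (61.8 to 90.7) and 17.1 CPM (12.0 to 23.7), a log2 ratio of -2.12 (-2.72 to -1.58). The intervals of the pools did not overlap in either class. Of the 3 compared classes, Lepr+ CAR stromal-like cells had the lowest levels, 14.2 CPM (9.80 to 20.0) from 33 UMIs and 2.77 CPM (0.83 to 6.75) from 4.5 UMIs, under the minimum for a measured gene. Hspa1b stood at 94.7 and 18.4 CPM in osteoblast-like cells (log2 ratio -2.57, -2.95 to -2.23) and at 40.5 and 8.56 CPM in osteo-primed cells (-2.21, -3.09 to -1.46). The genes are near-identical copies, so the division of counts between them is uncertain, and Hspa1a had 2.01 times the UMIs of Hspa1b in control osteoblast-like cells (1.80 to 2.24) and 1.75 times in the immobilized pool (1.31 to 2.34).

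Hsph1, an HSP110 protein that exchanges the nucleotide of HSP70, and Dnajb1, the J-domain partner of inducible HSP70, were also lower in all 3 classes. In Lepr+ CAR, osteo-primed and osteoblast-like cells of the control pool Hsph1 stood at 23.5, 49.8 and 39.3 CPM, and in the immobilized pool at 12.6, 19.5 and 14.2 CPM. Its log2 ratios in that order were -0.88 (-1.71 to -0.14), -1.34 (-1.94 to -0.78) and -1.68 (-2.13 to -1.26). Dnajb1 stood at 29.6, 60.4 and 79.9 CPM in the control and at 10.8, 37.1 and 34.0 CPM in the immobilized pool, which gives log2 ratios of -1.43 (-2.30 to -0.68), -0.70 (-1.16 to -0.25) and -1.45 (-1.74 to -1.17). Unlike Hsph1, Dnajb1 had its smallest gap in the osteo-primed class.

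Hsp90aa1, the stress-inducible cytosolic HSP90, and Dnaja1, a J-domain partner of HSP70, had higher counts and smaller gaps. In Lepr+ CAR stromal-like cells Hsp90aa1 stood at 238.4 CPM (219.0 to 259.2) in the control pool and 156.0 CPM (137.4 to 176.5) in the immobilized pool, in osteo-primed cells at 299.0 and 178.4 CPM, and in osteoblast-like cells at 326.0 and 172.8 CPM. The log2 ratios were -0.61 (-0.83 to -0.39), -0.74 (-0.95 to -0.54) and -1.13 (-1.26 to -1.01), with the pools' levels apart in each class. For Dnaja1 the control levels were 217.7, 267.8 and 174.1 CPM, the immobilized levels 145.9, 199.8 and 113.7 CPM, and the log2 ratios -0.58 (-0.81 to -0.35), -0.42 (-0.62 to -0.22) and -0.83 (-0.99 to -0.67). Dnajb4, another inducible J-domain partner, stood at log2 ratios of -0.51, -0.33 and -0.87, and the interval included 0 in osteo-primed cells (-0.72 to 0.06). Of the 3 classes, Dnaja4 was measured in osteoblast-like cells only, with 9.53 CPM in control and 10.3 CPM in immobilized cells, and its interval included 0 (-0.10, -0.72 to 0.52).

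Hspb1, the small heat shock protein HSP27, was scarce in the compared classes and under the minimum in each. It had 28 UMIs in control and 1 UMI in immobilized osteoblast-like cells, 6 and 1.5 UMIs in osteo-primed cells, and 34.5 and 17.5 UMIs in Lepr+ CAR stromal-like cells (14.9 and 10.8 CPM). The osteoblast-like log2 ratio of -4.13 has a counting interval from -10.05 to -2.09, and the other intervals included 0.

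**Figure D1:**
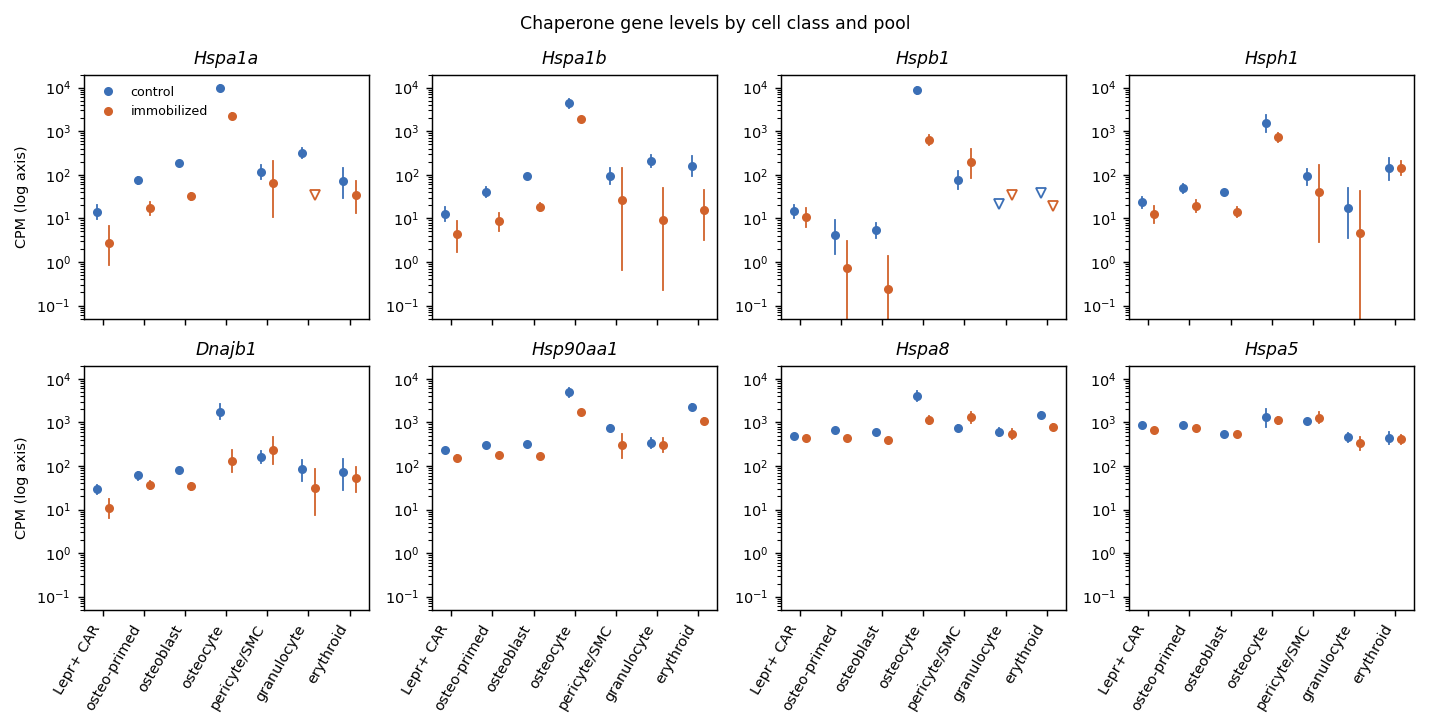
Levels of 6 inducible members and of Hspa8 and Hspa5 in 7 cell classes, in CPM on a log axis, with blue for the control and orange for the immobilized pool, 95% Poisson intervals (counting error only) as lines, and open triangles at the upper limit where no UMI was found. In osteoblast-like cells Hspa1a stood at 190.2 and 32.0 CPM, and in the 42 osteocyte-like cells of the immobilized pool at 2268 CPM; the control osteocyte-like points rest on 5 cells.

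Counts over the lists set the measured members beside all measured genes. At least 1.5-fold lower in the immobilized pool were 3 of 5 measured inducible members in Lepr+ CAR stromal-like cells, where 4.52% of 7219 measured genes were as low, and 5 of 7 in osteo-primed cells, where 2.73% of 6514 genes were. In osteoblast-like cells the count was 7 of 8, by total counts (3.83% of 8096 genes) and relative to the shift (9.61%). Over all lists together, 3 of 41, 6 of 39 and 13 of 48 measured members were lower by this fold in the 3 classes, the last relative to the shift (10 by total counts). The first of these counts was 5 without cluster 16, a Lepr+ CAR stromal-like cluster of 11 control and 108 immobilized cells, and 9 with the doublet calls kept. None of the measured members was at least 1.5-fold higher in Lepr+ CAR stromal-like cells (4.24% of genes), in osteo-primed cells (4.68%) or, relative to the shift, in osteoblast-like cells (5.88%); by total counts 2 were higher there (15.5% of genes). Over all kept cells, 8 of 56 measured members were lower by total counts (3.89% of 11407 genes) and 10 relative to the shift (6.5%), and 3 were higher by total counts (7.73%) and 2 relative to the shift (4.38%). In Lepr+ CAR stromal-like cells, Hsph1 (54.5 and 20.5 UMIs) and Dnajb1 (68.5 and 17.5 UMIs) reached the minimum in the control pool only. So did Hspa1a (109.5 and 36 UMIs), Hspa1b (59 and 18) and Hsph1 (72.5 and 41) in osteo-primed cells. All of these are among the members counted as lower. A member measured only through the pool where it is high is more likely to differ, so these counts and the list medians describe the measured members and not all 59.

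**Figure D2:**
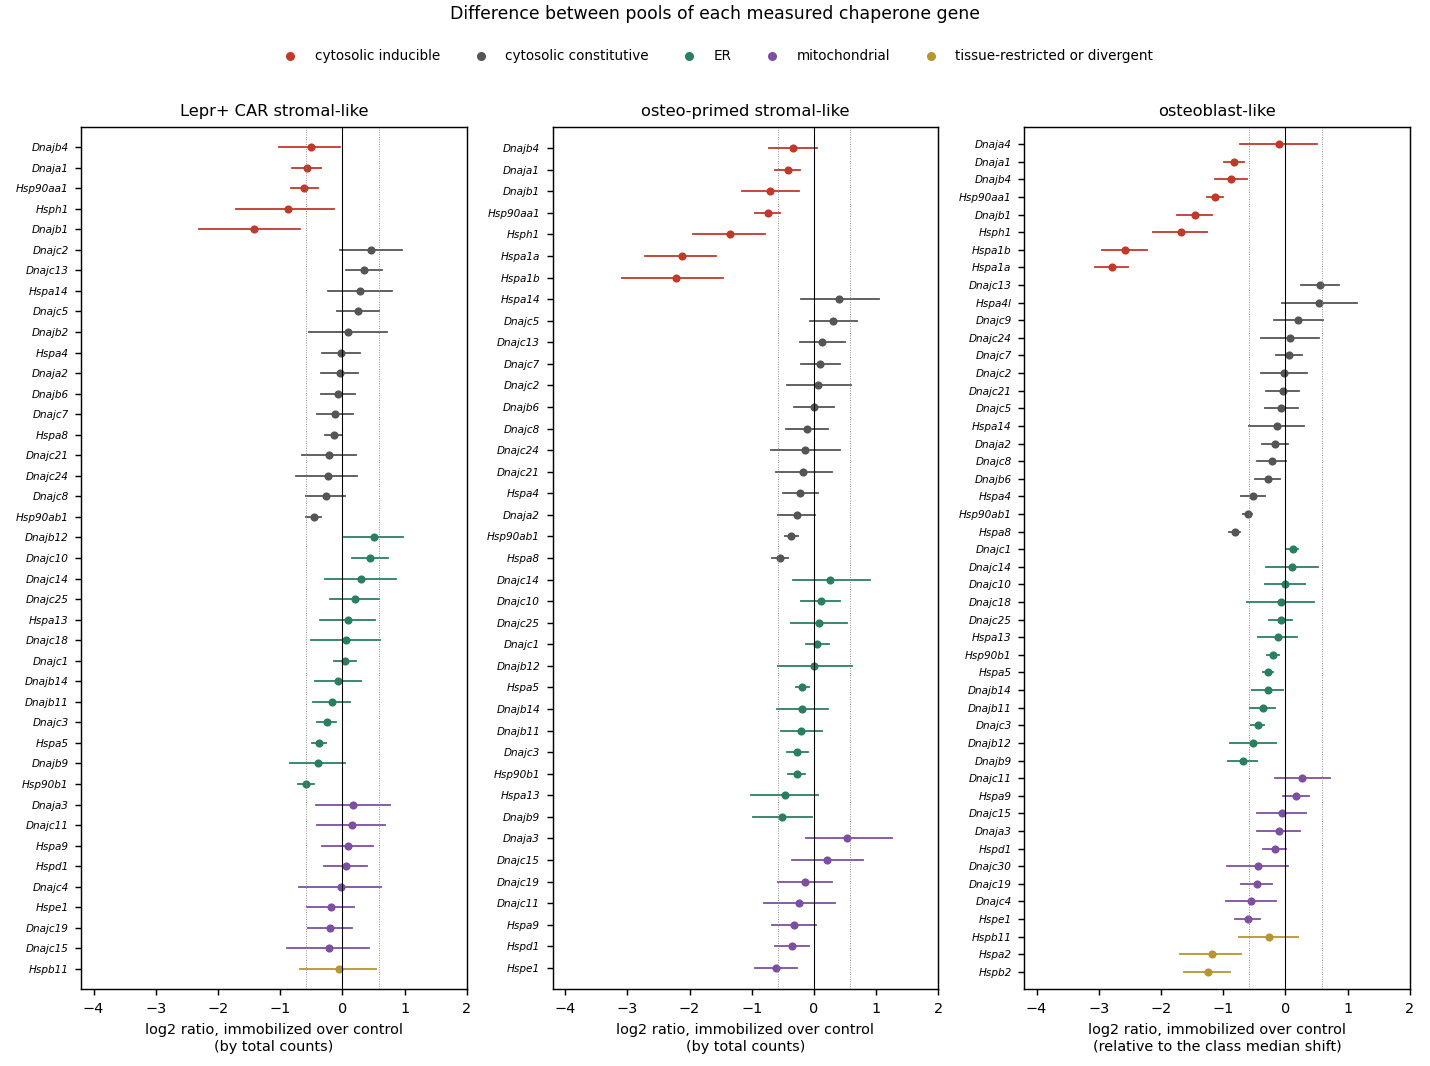
Log2 ratio of immobilized over control for each measured member in the 3 compared classes, coloured by list, with 95% counting intervals; the dotted lines mark 1.5-fold, and osteoblast-like values are relative to the shift of that class. The inducible members (red) lie to the left, down to -2.78 for Hspa1a in osteoblast-like cells, where the ER and mitochondrial medians were -0.20 and -0.17.

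The constitutive cytosolic members as a list stayed near the median gene, at median log2 ratios of -0.06 over 14 measured members in Lepr+ CAR stromal-like, -0.12 over 13 in osteo-primed and -0.06 over 15 in osteoblast-like cells. The abundant general chaperones among them stood lower in the immobilized pool. Hspa8 (ENSMUSG00000015656, chromosome 9, 40800984 to 40810087), the constitutive HSP70 that also uncoats clathrin vesicles, had control and immobilized levels of 490.0 and 445.6 CPM among Lepr+ CAR stromal-like cells, 653.3 and 447.7 CPM among osteo-primed cells, and 591.9 and 391.1 CPM among osteoblast-like cells. Its log2 ratios were -0.14 (-0.27 to -0.0014), -0.55 (-0.68 to -0.41) and -0.81 (-0.90 to -0.73). Hsp90ab1, the constitutive HSP90, stood at 693.5 and 502.8, 992.2 and 769.6, and 796.8 and 609.5 CPM, with log2 ratios of -0.46 (-0.59 to -0.34), -0.37 (-0.47 to -0.26) and -0.60 (-0.67 to -0.53). Thus 1 measured constitutive member in osteoblast-like cells by total counts and 2 relative to the shift were at least 1.5-fold lower, and no measured one in the other classes. Hspa4, an HSP110 exchange factor like Hsph1, stood at 93.0 and 91.4, 131.8 and 113.0, and 110.0 and 89.0 CPM, with intervals that included 0 except in osteoblast-like cells (-0.52, -0.71 to -0.33).

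Some other constitutive members had ratios above 0. Dnajc13, a J-domain protein of endosomes, stood at 30.6 and 52.1 CPM in osteoblast-like cells, a log2 ratio of 0.55 (0.25 to 0.85), and in Lepr+ CAR stromal-like cells at 91.5 and 116.6 CPM (0.35, 0.06 to 0.64). Hspa4l, the HSP110 relative of Hspa4, was at 8.10 and 13.7 CPM in osteoblast-like cells (0.54, -0.06 to 1.15). The highest in Lepr+ CAR stromal-like cells was Dnajc2, a ribosome-associated J-domain protein, at 30.4 and 41.9 CPM (0.46, -0.04 to 0.96), and in osteo-primed cells Hspa14 at 24.0 and 31.9 CPM (0.40, -0.20 to 1.04) and Dnajc5, a synaptic vesicle J-domain protein, at 64.2 and 79.5 CPM (0.30, -0.07 to 0.69). Of these only the Dnajc13 intervals exclude 0. Hspa4l (42.5 and 57 UMIs) and Hspa14 (35 and 67 UMIs) reached the minimum in the immobilized pool only, so they were more likely to stand higher. Leaving out Hspa8, Hsp90ab1 and Hspa4, described above, the lowest constitutive members were Dnajc8 (-0.27, -0.58 to 0.04) and Dnajc24 (-0.24, -0.74 to 0.24) in Lepr+ CAR stromal-like cells and Dnaja2 (-0.28, -0.58 to 0.02) in osteo-primed cells.

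Paired genes of the same family put these differences on a common base, since a ratio within a pool does not depend on how the pools are scaled. The UMIs of Hspa1a and Hspa1b together were 0.481 times those of Hspa8 in control osteoblast-like cells (0.452 to 0.512) and 0.129 times in the immobilized pool (0.111 to 0.149). In osteo-primed cells the ratios were 0.177 (0.149 to 0.209) and 0.0574 (0.0428 to 0.0755), and in Lepr+ CAR stromal-like cells 0.055 (0.042 to 0.071) and 0.0159 (0.00804 to 0.0282). The inducible HSP70s thus stood lower against the constitutive HSP70 in each class. For HSP90 the ratio of Hsp90aa1 to Hsp90ab1 was 0.409 (0.387 to 0.433) and 0.283 (0.261 to 0.308) in osteoblast-like cells and 0.301 (0.270 to 0.336) and 0.232 (0.207 to 0.260) in osteo-primed cells. In Lepr+ CAR stromal-like cells its intervals overlapped, at 0.344 (0.312 to 0.379) and 0.310 (0.268 to 0.358).

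The ER members had median log2 ratios of 0.04 over 13 measured members in Lepr+ CAR stromal-like, -0.19 over 12 in osteo-primed and -0.20 over 13 in osteoblast-like cells. Their summed levels stood at log2 ratios of -0.25, -0.18 and -0.21. No measured ER member was at least 1.5-fold lower by total counts. Relative to the shift of each class, 1 measured member was lower in Lepr+ CAR stromal-like cells (Hsp90b1, -0.62) and 1 in osteoblast-like cells (Dnajb9, -0.69). Members under the minimum are not in these counts. Hspa5 (BiP), the ER HSP70, had levels of 865.1 and 666.5 CPM among Lepr+ CAR stromal-like cells (-0.38, -0.48 to -0.27), 849.7 and 747.5 CPM in osteo-primed cells (-0.18, -0.29 to -0.08) and 551.0 and 528.7 CPM in osteoblast-like cells (-0.28, -0.36 to -0.20). Hsp90b1 (GRP94), the ER HSP90, stood at 652.5 and 435.4, 552.0 and 456.5, and 351.0 and 355.6 CPM, with log2 ratios of -0.58 (-0.71 to -0.45), -0.27 (-0.41 to -0.14) and -0.20 (-0.30 to -0.10). Both had their widest gap in Lepr+ CAR stromal-like cells, where the inducible list had its smallest; by total counts the osteoblast-like values were -0.06 for Hspa5 and 0.02 for Hsp90b1.

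Dnajb9 (ERdj4), a BiP partner that takes part in the degradation of ER proteins, was the lowest measured ER member in osteo-primed and osteoblast-like cells. It stood at 54.6 and 41.5, 52.2 and 36.6, and 78.9 and 56.9 CPM, with log2 ratios of -0.39 (-0.84 to 0.04), -0.51 (-0.99 to -0.03) and -0.69 (-0.93 to -0.45). Dnajc3, the co-chaperone and kinase inhibitor P58IPK, stood at -0.26 (-0.41 to -0.11), -0.26 (-0.43 to -0.10) and -0.44 (-0.55 to -0.34), from control levels of 430.3, 368.4 and 331.9 CPM. Dnajb11 (ERdj3), a BiP partner for folding, had intervals that included 0 in Lepr+ CAR stromal-like and osteo-primed cells and stood at -0.36 (-0.56 to -0.16) in osteoblast-like cells. Dnajc10 (ERdj5), an ER disulfide reductase, was higher in Lepr+ CAR stromal-like cells, at 85.9 and 116.9 CPM (0.45, 0.15 to 0.74), as was Dnajb12, an ER membrane J-domain protein, at 32.8 and 46.5 CPM (0.50, 0.02 to 0.98). Hspa13, an ER and microsomal HSP70, stood in osteo-primed cells at 40.9 and 29.5 CPM (-0.47, -1.01 to 0.07).

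Among the mitochondrial members, the chaperonin Hspd1 (HSP60) and its lid Hspe1 (HSP10), which share a promoter region with 1 heat shock element, did not show the same gap. In Lepr+ CAR, osteo-primed and osteoblast-like cells Hspe1 stood at 66.2 and 58.2, 106.1 and 69.7, and 105.6 and 80.5 CPM, with log2 ratios of -0.18 (-0.57 to 0.19), -0.61 (-0.94 to -0.27) and -0.61 (-0.81 to -0.41). Hspd1 stood at 73.4 and 76.0, 150.7 and 118.0, and 110.0 and 113.3 CPM, with log2 ratios of 0.05 (-0.30 to 0.39), -0.35 (-0.62 to -0.08) and -0.17 (-0.35 to 0.004). In osteoblast-like cells Hspe1 had 0.960 times the UMIs of Hspd1 in the control (0.853 to 1.08) and 0.711 times in the immobilized pool (0.616 to 0.819), and in the other classes these intervals overlapped. Reads of Hspe1 may be shared with near-identical copies, so its counts are uncertain to that extent.

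Hspa9 (mortalin), the mitochondrial HSP70 that pulls proteins through the inner membrane, stood at 51.6 and 54.8, 89.6 and 71.8, and 70.2 and 92.3 CPM, and its log2 ratios of 0.09, -0.32 and 0.18 had intervals that included 0 in all 3 classes. By total counts the osteoblast-like value was 0.39 (0.18 to 0.60). Dnaja3, a mitochondrial J-domain partner, had the highest ratio of the measured members in osteo-primed cells, at 19.2 and 28.1 CPM (0.53, -0.13 to 1.25). It reached the minimum there in the immobilized pool only (28 and 59 UMIs). Dnajc11, which takes part in cristae organization, stood in osteoblast-like cells at 16.3 and 22.9 CPM (0.27, -0.16 to 0.71). The medians of the list were 0.01 over 8 measured members, -0.24 over 7 and -0.17 over 9. Of the measured members Hspe1 alone was at least 1.5-fold lower, in osteo-primed cells and, relative to the shift, in osteoblast-like cells.

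Hspb2, a small heat shock gene known from muscle, and Hspa2, an HSP70 known from the testis, were the tissue-restricted members with their counts chiefly in osteoblast-like cells. Hspb2 (ENSMUSG00000038086) stood there at 42.7 CPM from 224 UMIs and 20.9 CPM from 87 UMIs (log2 ratio -1.24, -1.62 to -0.88), and Hspa2 at 23.8 and 12.1 CPM (-1.18, -1.69 to -0.71). Both were under the minimum in the stromal classes, where Hspb2 had 24.5 and 29.5 UMIs in osteo-primed cells and 4.5 and 0.5 UMIs in Lepr+ CAR stromal-like cells. Cryab, a small heat shock gene that the symbol rule does not take, was lower too, at 193.4 and 97.1 CPM in osteoblast-like cells (-1.21 relative to the shift) and 65.6 and 28.8 CPM in osteo-primed cells (-1.18). Hspb11, an intraflagellar transport protein, had 25.5 and 24.3 CPM among Lepr+ CAR stromal-like cells, with an interval that included 0 (-0.69 to 0.54). Hspa12a, a divergent HSP70, was under the minimum in each compared class, with 28 and 49.5 UMIs in osteo-primed cells, and over all kept cells it stood at 5.63 and 9.54 CPM (0.76 by total counts, 0.26 to 1.27).

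The regulators and partners of the members were read from lists of other genes. Of 22 heat shock factors and co-chaperones, 17, 17 and 20 were measured in the 3 classes, with medians of -0.16, -0.39 and -0.34 (by total counts in the first 2 classes and relative to the shift in osteoblast-like cells, as for all lists here). At least 1.5-fold lower were 0, 3 and 6 of them, beside 4.52%, 2.73% and 9.61% of all measured genes, and 0, 0 and 1 were higher, beside 4.24%, 4.68% and 5.88%; the counts of 1 or 2 genes below are near these shares. Hsf1 itself stood at 11.1 and 16.1 CPM in osteoblast-like cells (log2 ratio 0.32 relative to the shift). Bag3, an inducible partner of HSP70 and small heat shock proteins, stood at 101.9 and 65.6 CPM there (-0.85), while Fkbp5, an HSP90 partner that glucocorticoids induce, stood higher at 8.10 and 15.6 CPM (0.72), and at 46.7 and 65.4 CPM in osteo-primed cells (0.48, 0.06 to 0.93). In osteoblast-like cells Fkbp5 reached the minimum in the immobilized pool only (42.5 and 65 UMIs). Of 21 other genes of the ER unfolded protein response, 2 of 19 measured were at least 1.5-fold lower in Lepr+ CAR stromal-like cells, Sdf2l1 (-0.89) and Pdia6 (-0.62), and 1 was higher, the sensor Ern1 (0.72). In osteo-primed cells 1 of 16 was lower, Herpud1 (-0.59), and in osteoblast-like cells 1 of 19, Pdia4 (-0.63), with none higher. The highest of them in osteoblast-like cells were Atf6 (0.33) and Eif2ak3 (0.15). The 14 chaperonin and prefoldin subunits, all measured, had medians of -0.13, -0.17 and -0.23, and 1, 0 and 1 were lower by this fold (Pfdn2 in Lepr+ CAR stromal-like and Pfdn5 in osteoblast-like cells) and none higher. For mitochondrial protein quality control 10, 9 and 13 of 14 genes were measured, with medians of -0.06, 0.08 and 0.08. By this fold 1, 0 and 1 were lower (Atf5 in Lepr+ CAR stromal-like and Grpel1 in osteoblast-like cells) and none higher. The highest in osteoblast-like cells were Afg3l2 (0.57, or 0.78 by total counts) and Atf5 (0.33).

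Osteocyte-like cells, named from Dmp1, Mepe, Phex, Pdpn and Dkk1, held the highest inducible chaperone levels in the immobilized pool. They numbered 42 there and 5 in the control pool, too few to compare, and Hspb1, Hspa1a and Hspa1b were among the 10 genes that set their cluster apart although no chaperone gene was used to form it. In the immobilized pool Hspa1a stood at 2268 CPM (1980 to 2588), Hspa1b at 1884 CPM, Hsp90aa1 at 1690 CPM (1442 to 1968), Hsph1 at 727.1 CPM (567.9 to 917.2) and Hspb1 at 624.7 CPM (477.9 to 802.5). All 9 inducible members were highest in this class among the 7 named classes with at least 30 immobilized cells, against 4 of 20 constitutive and 2 of 14 ER members. The share of all genes that were highest in this class is not given here, so these counts describe the members only. Some of them rest on few UMIs, such as Dnaja4 on 6. Hspa1a and Hspa1b together had 3.64 times the UMIs of Hspa8 (2.94 to 4.53), and Hsp90aa1 1.53 times those of Hsp90ab1 (1.19 to 1.97), both above the ratios in osteoblast-like cells. Hspa5 stood at 1111 CPM there (912.0 to 1341) and Hspd1 at 194.6 CPM (117.2 to 303.9).

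These levels were uneven between cells. The 5 osteocyte-like cells with the most Hspa1a held 68.6% of its 221.5 UMIs in the immobilized pool, and the cell with the most had 51. In the control pool the summed level was 9685 CPM, but 1 of the 5 cells held 78.9% of the UMIs, so this value describes that cell. The immediate early genes, known to respond quickly to many stimuli, had a summed level of 10892 CPM in immobilized osteocyte-like cells, beside 4236 CPM in osteoblast-like cells of the same pool. Their part in the chaperone levels was not tested.

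In the other classes the members kept to their own patterns. Hspb1 had no UMI in the granulocyte-like or erythroid-like cells of either pool, where 3 counts correspond to 15.6 to 30.5 CPM, and stood at 77.5 CPM (47.7 to 119.1) in the 57 control pericyte or smooth muscle-like cells. Erythroid-like cells of the immobilized pool had the highest level of 13 of 20 constitutive and 6 of 9 mitochondrial members among the named classes with at least 30 cells, for example 623.8 CPM of Hspd1 (517.2 to 745.9). The share of all genes that were highest in erythroid-like cells is not given here. Dnajc6, the clathrin-uncoating auxilin, was found mostly in them, with 52 of its 57 UMIs in the immobilized pool (270.3 CPM), so its log2 ratio of 1.90 over all kept cells moved with the 11 control and 44 immobilized cells of that class. The granulocyte-like cells had 54.5 UMIs of Hspa1a in the control pool, in 10.98% of the cells, and none in the immobilized pool, where 3 counts correspond to 27.3 CPM. Dnajc1, an ER membrane J-domain protein, was highest in osteoblast-like cells of both pools among those classes, at 350.4 and 441.1 CPM.

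The gap in the inducible list was also read cluster by cluster, by total counts. Summed over the 9 members, the level was lower in the immobilized pool in 15 of 15 clusters with at least 10 cells per pool, from 1.17-fold to 2.23-fold, and at least 1.5-fold lower in 8. For the constitutive members the sum was lower in 12 of 15 and for the ER members in 10 of 15, in none of them by 1.5-fold. For the mitochondrial members it was lower in 12 of 15. Some of these clusters held as few as 11 cells in a pool. How often sums of other genes of like level were lower is not given here, so these counts describe the lists only. Among osteoblast-like clusters, Hspa1a stood at 435.6 and 137.3 CPM in cluster 8, which was led by the stress gene Atf3, at 215.1 and 32.8 CPM in cluster 9, at 109.8 and 16.7 CPM in cluster 2, and at 26.2 and 4.71 CPM in cluster 10. The order of the clusters was the same in both pools. Cluster 8 held 117 control and 76 immobilized cells and cluster 9 held 155 and 69, while cluster 2 held 57 and 153, so the class as a whole mixes the clusters differently in the pools. With the 4 clusters given the same weight in both pools, the inducible median in osteoblast-like cells was -0.80 by total counts, and without cluster 8 it was -0.81, beside -1.07.

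**Figure D3:**
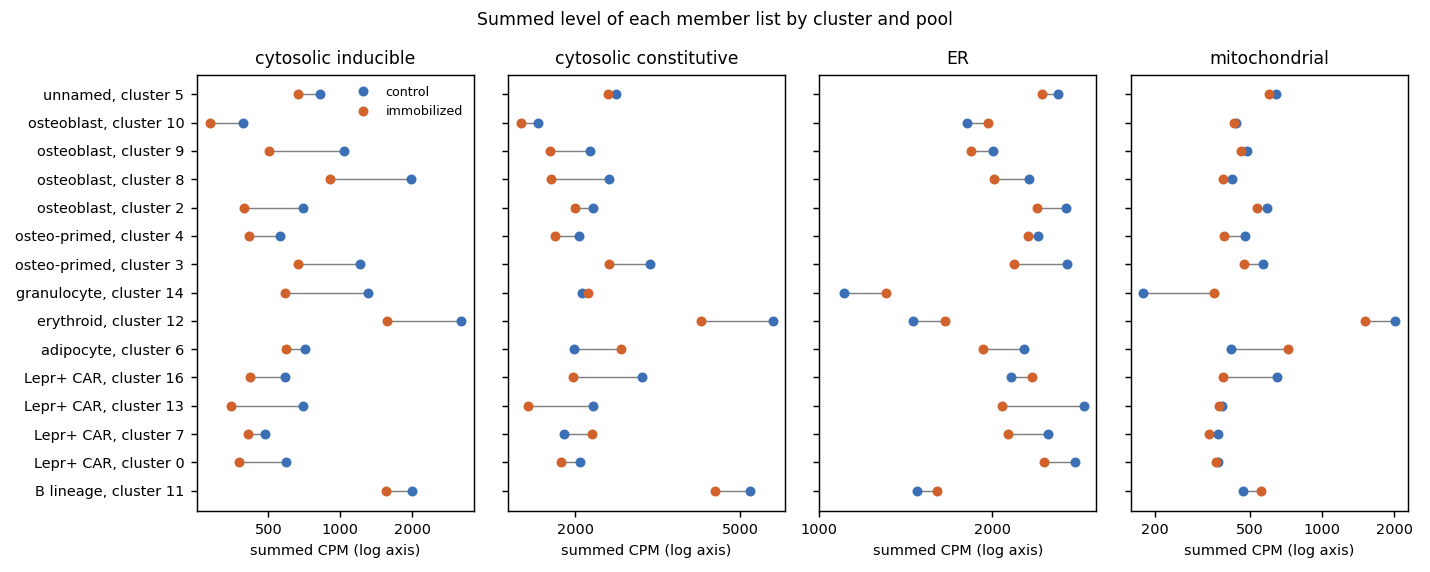
Summed CPM of 4 member lists on log axes in the 15 clusters with at least 10 cells per pool, with the control pool in blue and the immobilized pool in orange. The inducible sum is lower in the immobilized pool in 15 of 15 clusters, against 12 of 15 for the constitutive, 10 of 15 for the ER and 12 of 15 for the mitochondrial members.

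The transcripts of some inducible members were held by few cells. In control osteoblast-like cells, the tenth of cells with the most Hspa1a (49 of 483) held 60.3% of its UMIs, and in the immobilized pool 90.3% (49 of 489), beside 33.9% and 29.9% for Hspa8 and 29.8% and 29.7% for Hspa5. Hspa1b (58.5% and 90.2%), Hsph1 (58.5% and 78.8%) and Dnajb1 (57.4% and 63.3%) were as uneven, whereas the inducible Hsp90aa1 (35.2% and 36.7%) and Dnaja1 (30.4% and 36.6%) were spread like the constitutive Hspa8 and Hspa4 (34.0% and 36.3%). These cells were ranked on the gene itself, and the immobilized share of Hspa1a rests on 133.5 UMIs. Those of Hspa1b, Hsph1 and Dnajb1 rest on 76.5, 59 and 141.5 UMIs. With so few UMIs the top 49 cells hold a high share whatever the spread. The immobilized shares of these genes therefore cannot be compared with that of Hspa8, from 1630 UMIs. At a common depth of 2000 UMIs per cell, which left out 7 control and 14 immobilized cells, 23.9% of control and 5.05% of immobilized osteoblast-like cells had a Hspa1a UMI (43.6% and 11.9% before thinning, at median depths of 9525 and 8003 UMIs). For osteo-primed cells the thinned shares were 10.4% and 2.41%. No class is known to lack Hspa1a, so no share from free RNA can be set beside these. Among granulocyte-like cells, 10.98% of the 41 control cells had a UMI, with 30.5 of the 54.5 UMIs in 1 cell, and none of the 51 immobilized cells did.

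Immediate early genes stood lower in the immobilized pool in the same classes. Of 20 such genes, 15 of 16 measured were below 0 in Lepr+ CAR stromal-like and osteo-primed cells and 15 of 19 in osteoblast-like cells, with medians by total counts of -0.45, -0.32 and -0.50. At least 1.5-fold lower by total counts were 4, 3 and 7 of them, beside 4.52%, 2.73% and 3.83% of all measured genes. By the same fold 0, 0 and 1 were higher, beside 4.24%, 4.68% and 15.5%. Their summed level was 1613 and 1192 CPM among Lepr+ CAR stromal-like, 4550 and 3544 CPM among osteo-primed, and 5513 and 4236 CPM among osteoblast-like cells. By cluster they separated from the chaperones: the immediate early sum was lower in 10 of 15 clusters and higher in 5, among them osteoblast-like clusters 2, 9 and 10, where the inducible sum was lower. Cluster 8 had the highest immediate early sum of the osteoblast-like clusters (13671 and 11891 CPM) and held 117 control and 76 immobilized cells. Across the 27 points of clusters with at least 30 cells in a pool, the log levels of the inducible and immediate early sums correlated at r = 0.70, those of the inducible and constitutive sums at r = 0.76 and those of the inducible and ER sums at r = -0.01; points of the same pool share a library and points of the same cluster share a cell type. Whether the lower immediate early levels have a part in the lower chaperone levels was not tested.

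**Figure D4:**
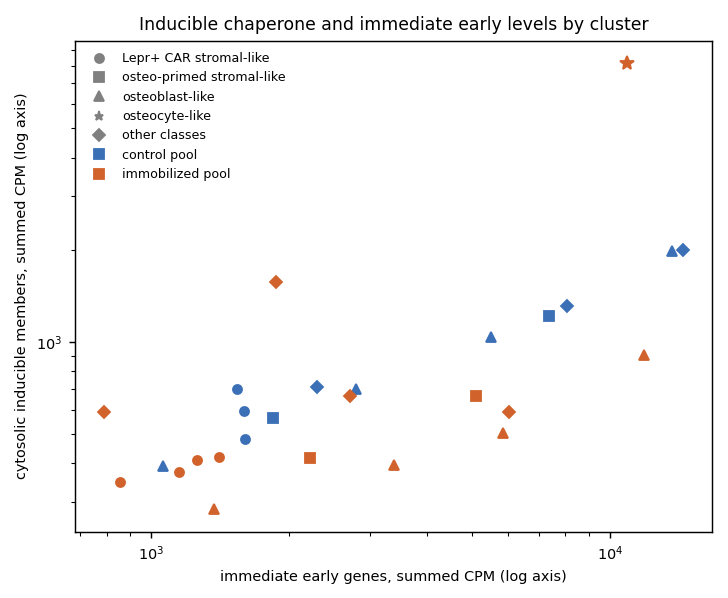
Summed CPM of the 9 inducible members against that of 20 immediate early genes, both on log axes, for each cluster with at least 30 cells in a pool; symbols give the class and colours the pool. Points with more of one sum have more of the other (27 points, r = 0.70), and the osteocyte-like cluster of the immobilized pool lies highest, at 8162 CPM of inducible members.

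Both sexes were pooled, in unequal shares, and the inducible list was read in female and male cells apart, as called from Xist and Y-linked transcripts. Female cells made up 92.0% of the sexed osteoblast-like cells of the control pool and 77.9% of those of the immobilized pool. In female osteoblast-like cells the inducible sum was 1024 CPM for the control and 440.0 CPM for the immobilized pool (log2 ratio -1.22, -1.31 to -1.13), and in male cells 672.4 and 437.5 CPM (-0.62, -0.87 to -0.37, from 37 and 101 cells). For osteo-primed cells the values were 1014 and 550.9 CPM in female cells (-0.88, -1.03 to -0.74), while male cells had 551.5 and 509.8 CPM (-0.11, -0.36 to 0.13), with an interval that included 0. The difference between the sexes was not tested. Among Lepr+ CAR stromal-like cells the sums were 700.0 and 328.9 CPM in female cells (-1.09, -1.40 to -0.79), while male cells had 546.1 and 400.0 CPM (-0.45, -0.63 to -0.27). The control pool thus had a higher inducible level in female than in male cells of all 3 classes, while the immobilized pool had 440.0 and 437.5 CPM in osteoblast-like cells of the sexes. These sex-specific sums are by total counts. Cells of a sex may come from few of the pooled mice, so sex and mouse cannot be told apart.

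Single genes varied around these sums. Hspa1a stood at 200.6 and 29.5 CPM in female (-2.76, -3.09 to -2.45) and 78.4 and 34.7 CPM in male osteoblast-like cells (-1.19, -1.98 to -0.35). In osteo-primed cells it stood at 94.3 and 10.7 CPM in female cells (-3.08, -4.13 to -2.26), and at 27.6 and 22.0 CPM from 10.5 and 18.5 UMIs in male cells (-0.35, -1.49 to 0.92). Hsp90aa1, with more counts, stood at 181.2 and 178.1 CPM in male (-0.03, -0.45 to 0.41) and 344.5 and 180.9 CPM in female osteo-primed cells (-0.93, -1.19 to -0.68). In male cells the log2 ratio of Hsph1 in Lepr+ CAR stromal-like cells was 0.15, from 13 and 14 UMIs, and that of Dnajb4 in osteoblast-like cells was 0.52, from 11 and 52 UMIs (-0.38 to 1.66). Dnajb1 stood at -0.55 in female and -0.62 in male osteo-primed cells, the latter with an interval that included 0 (-1.60 to 0.43). The ER sum of osteoblast-like cells went the other way in the control pool, with 2022 and 2053 CPM in female and 2434 and 2088 CPM in male cells.

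**Figure D5:**
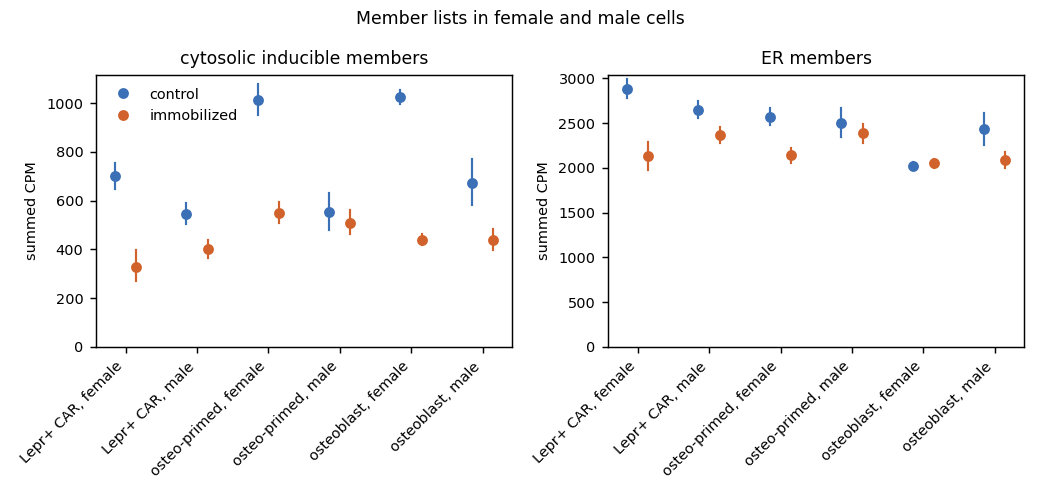
Summed CPM of the inducible and ER members in female and male cells of the 3 compared classes, on linear axes from 0, with the control pool in blue, the immobilized pool in orange and 95% counting intervals as lines. The inducible sum in control cells was higher in female than in male cells (1024 and 672.4 CPM in osteoblast-like cells), and in the immobilized pool the female and male values were 440.0 and 437.5 CPM in osteoblast-like, 550.9 and 509.8 CPM in osteo-primed and 328.9 and 400.0 CPM among Lepr+ CAR stromal-like cells.

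The barcodes left out for their mitochondrial share had a higher inducible sum than the kept cells, though not every inducible member was higher. Their inducible sums per 1000000 nuclear-gene counts were 1688 (1547 to 1839) and 1225 (1146 to 1307), above the 1028 and 615.9 of the kept cells. Hsp90aa1 stood at 785.0 and 786.6 in them (360.3 and 232.4 in the kept cells), and Hsph1 at 171.1 and 69.2 (43.0 and 27.9). Dnaja1 stood at 231.8 and 172.6, near the 231.8 and 163.3 of the kept cells. Hspb1 had no UMI in the removed barcodes. Hspa1a stood at 175.9 (132.5 to 228.9) and 33.6 (21.7 to 49.6) in the removed barcodes, apart by pool as in the kept cells (142.8 and 48.7). Hspd1 stood at 418.9 and 475.6 in the removed barcodes, beside 118.7 and 127.2 in the kept cells.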

How the data were processed

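Cells of 1 control and 1 immobilized pool were profiled with 10x 3′ v3.1 chemistry, per the labels' protocols. The authors deposited whole-number UMI counts of genes in barcodes, from Cell Ranger 7.0.0 (per the file headers) on mm10 (per the submitters' processing notes), with lists of features and barcodes. Which annotation they used is not stated there. Of the features, 32235 matched GENCODE vM21 (GRCm38), which gave gene coordinates.

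Kept were barcodes of both lanes that had 500 or more genes and a mitochondrial share below 10% (90 and 126 had too few genes), and 18 control and 9 immobilized Scrublet doublet calls were removed. Counts were scaled to 10000 per cell and clustered in scanpy 1.11.5 (2000 variable genes without the members, 30 components, 15 neighbours, Leiden resolution 1, igraph 0.11.9), which gave 18 clusters. A cluster took the name for which at least 3 markers and 30% of the list were over 2-fold higher and in at least 10% of its cells, from lists for 21 cell types; how markers were scored was settled once the clusters had been inspected, and clusters with 3 cell-cycle genes among the 10 leading ones stayed unnamed. Levels are CPM of UMIs summed over a class and averaged over the 2 lanes. Intervals are 95%: exact Poisson for levels, exact Clopper-Pearson for shares and exact conditional binomial for ratios, from scipy 1.17.1; they take UMIs as independent. To each UMI sum 0.5 was added before a log2 ratio, which understates low genes, and the ratio code was tested on simulated data. Labels name no separate animals within a pool.

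The members, lists and named genes were chosen with earlier results of these data known. Named throughout were 18 members (the best known of each list), and in each compared class of the other measured members the top 3 and the bottom 3 by ratio. Genes of the other lists were picked from the 2 highest and 2 lowest in each compared class, and not all of those are named. Dnajc6, Dnajc1, Hspb11, Hspa12a, Dnaja4, and values of these genes in other classes, were added after their values were seen. Alternatives covered scaling, cell filters, clustering, doublets, cluster mix, weighting of cells, sex, lanes and the count minimum. Protein sequences were not used here. Many members outside these choices are counted without being named, and separately 1 member is withheld by name.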

Additional observations from a re-analysis of the deposited data

How the results depend on the processing

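With 1 pool per group, depth limits members with few UMIs and nothing here measures the spread between mice. No paired analysis was possible because the lanes of a pool hold the same cells and no test was made. In the settings run, the inducible median stayed below 0 in all 3 classes: -1.15 to -0.39 in Lepr+ CAR stromal-like, -0.93 to -0.35 in osteo-primed and -1.30 to -0.76 in osteoblast-like cells. The osteo-primed value of -0.35, in male cells, is that of Hspa1a, from 10.5 and 18.5 UMIs, with an interval that included 0. The inducible sum in those cells was at -0.11 (-0.36 to 0.13), so a gap was not seen in that setting beyond counting error.

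The list medians and member counts that moved beyond counting error or 1.5 times are the following, by total counts except where median-ratio scaling is named; the cause was not tested. In Lepr+ CAR stromal-like cells the inducible median was -1.06 with doublet calls kept and -1.15 in female cells. The count of members at least 1.5-fold lower, 3 as reported, was 5 with median-ratio scaling, 8 at Leiden resolution 2.0, 9 with doublet calls kept, 6 at 1 cluster mix, 11 in female cells, 1 in male cells, 8 with no minimum count and 5 without cluster 16, which was held mostly by 1 pool. The count at least 1.5-fold higher, 0 as reported, was 2 in female cells, 2 in male cells and 0 to 1 without replicate 1 or 2 (a lane). In osteo-primed cells the inducible median was -0.35 in male cells, 11 members were lower with no minimum count (6 as reported), and the count higher was 1 with per-cell means, 2 in male cells and 0 to 1 without a lane. In osteoblast-like cells the inducible median was -1.29 with median-ratio scaling, -1.30 with the stricter cell filter (at which the ER median was 0.20), -0.80 at 1 cluster mix, -0.76 in male cells and -0.81 without the cluster led by Atf3. The count higher, 2 as reported, was 0 with median-ratio scaling, 5 with the stricter filter, 1 at Leiden resolution 2.0, 1 at 1 cluster mix, 7 in male cells and 7 with no minimum count.

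Among single members, 4 ratios changed sign, all in male cells: Hsph1 in Lepr+ CAR stromal-like (0.15), Hspe1 in osteo-primed (0.056), and Dnajb4 (0.52) and Hspa4l (-0.58) in osteoblast-like cells. Of the other ratios under the alternatives, 853 moved by less than their counting interval and 79 by more, and of the levels 715 and 41. The settings without cluster 16, with the adipocyte-like cluster joined to the Lepr+ CAR class and without the Atf3-led cluster were chosen after seeing the data.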
